A study of Mus musculus with 8 samples.

Results

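The genes described here are 10 genes of prostaglandin production, breakdown and reception, taken by name from a table of 21885 named genes measured by RNA sequencing of mouse skin. They are the cyclooxygenase genes Ptgs1 and Ptgs2, the synthase genes Ptges, Ptges2, Ptgds and Ptgis, the breakdown enzyme gene Hpgd, and the receptor genes Ptger2, Ptger3 and Ptger4. All 10 were found. There were 8 libraries of skin: 4 after MC903, titled control by the submitters, and 4 after MC903 plus phytic acid. MC903 (calcipotriol) is an analogue of vitamin D that causes a dermatitis resembling atopic eczema on mouse skin, and phytic acid is a plant compound, inositol hexaphosphate. All libraries came from MC903 skin, so every value is relative to inflamed skin and not to healthy skin. The sources used here give no strain, sex, age, dose, body site or duration. Nor is it said whether libraries came from separate mice, so p-values measure only the spread among these libraries, which may be technical.

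Prostaglandins are short-lived lipid signals made where they act. Cyclooxygenases turn arachidonic acid, freed from membranes by phospholipases, into prostaglandin H2, and terminal synthases turn that into prostaglandin E2, D2, prostacyclin or thromboxane. Cyclooxygenase 1 (Ptgs1) is made steadily in many cells, while cyclooxygenase 2 (Ptgs2) is induced by growth factors, injury and inflammatory cytokines. In skin, prostaglandin E2 is a product of keratinocytes and fibroblasts known for roles in redness, pain, wound closure and keratinocyte growth, and Hpgd inactivates it.

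The cyclooxygenase, synthase and breakdown genes that changed most were Ptgs2, Ptges and Hpgd, and their promoters are printed so that the region upstream of each can be read. Each sequence runs from 250 bases before to 50 bases after the transcription start site that RefSeq gives, on the gene's own strand, 5′ to 3′, in the build GRCm38.p6. The Ptgs2 window is chr1:150099781-150100080 on the plus strand, the Ptges window chr2:30903248-30903547 on the minus strand, and the Hpgd window chr8:56294302-56294601 on the plus strand. GENCODE, used for the gene spans below, places the 5′ end of Ptges at chr2:30929863, so the Ptges window lies inside that span. Capitals mark matches to the motifs named after the sequences.
Ptgs2: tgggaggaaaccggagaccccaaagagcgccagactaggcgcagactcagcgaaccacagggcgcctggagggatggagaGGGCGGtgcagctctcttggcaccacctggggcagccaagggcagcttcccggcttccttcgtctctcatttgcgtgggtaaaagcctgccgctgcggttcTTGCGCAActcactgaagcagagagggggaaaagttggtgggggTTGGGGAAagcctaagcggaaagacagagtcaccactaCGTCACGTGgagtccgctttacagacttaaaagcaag
Ptges: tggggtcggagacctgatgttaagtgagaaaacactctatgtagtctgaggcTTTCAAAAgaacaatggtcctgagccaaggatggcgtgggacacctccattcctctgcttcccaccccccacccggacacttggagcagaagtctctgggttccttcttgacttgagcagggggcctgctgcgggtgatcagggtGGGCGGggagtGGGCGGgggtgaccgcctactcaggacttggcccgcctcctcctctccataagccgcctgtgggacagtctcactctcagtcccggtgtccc
Hpgd: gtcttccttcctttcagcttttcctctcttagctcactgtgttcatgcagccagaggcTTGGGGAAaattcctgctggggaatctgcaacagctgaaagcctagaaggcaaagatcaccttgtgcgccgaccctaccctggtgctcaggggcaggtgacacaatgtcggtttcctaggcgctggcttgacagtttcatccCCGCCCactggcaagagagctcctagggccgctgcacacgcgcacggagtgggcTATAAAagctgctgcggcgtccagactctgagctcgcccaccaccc
Both strands were searched for 9 motifs. These were the cyclic AMP response element (CRE, TGACGTCA) and its core site (TGACG), the E-box (CACGTG), the TATA box (TATAAA), AP-1 (TGANTCA), C/EBP (TTNNGNAA), the CCAAT box (CCAAT), the GC box (GGGCGG) and the NF-kB consensus. The Ptgs2 window held 1 CRE core site, which 20.8% of 32851 RefSeq promoters hold, and 1 E-box, which 7.2% hold. These matches share bases, lying at positions 14 to 18 and 17 to 22 counted from 1 at the start site. The same window held 2 C/EBP matches (40.7% of promoters hold at least 1) and 1 GC box (35.7%). The Ptges window held 2 GC boxes and 1 C/EBP match. The Hpgd window held 1 TATA box (13.6% of promoters), 1 C/EBP match and 1 GC box. Its TATA box match lies at positions 5 to 10, downstream of the start site that RefSeq gives. GENCODE places the 5′ end of Hpgd further on, at chr8:56294585, and the match lies upstream of that. C/EBP and GC box matches were thus found in all 3 windows, and both are common among promoters. A match is a description of letters and not a bound site. RefSeq promoters were matched for 9 of the 10 genes.

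Before the results, the libraries need describing. The depth, recovered from the values, was 31676934 to 37639476 reads in MC903 libraries and 38310034 to 42997271 in those with phytic acid. Keratinocyte and fibroblast genes marked the tissue as skin in every library, with keratins and their partners summing to 7503 to 10566 FPKM in MC903 skin and to 6058 to 7230 with phytic acid, and fibroblast genes to 435 to 1130 FPKM over all libraries. Skeletal muscle genes were abundant too, summing to 3258 to 3820 FPKM in MC903 skin and to 7221 to 8404 with phytic acid. In phytic acid replicates 1, 3 and 4 that was above the keratinocyte sum. FPKM counts fragments relative to a gene's length and to the depth of the library. MC903 replicate 3 stood apart. Its 6 hair follicle markers summed to 3150 FPKM against 0.526 to 49.9 in the other MC903 libraries and 0.347 to 0.893 with phytic acid, and its melanocyte markers to 139 against 13.4 to 16.3 and 14.6 to 15.1. Its mean correlation with the rest of its group over log2(FPKM + 1) was 0.958, against 0.970 to 0.978 for the other 3. Results that rest on it are given with and without it.

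With phytic acid, skin held less RNA of the inducible cyclooxygenase gene Ptgs2 and of Ptges, and more of Hpgd and of the receptor gene Ptger4. Genes with at least 1 FPKM in at least 4 libraries were tested by limma on log2(FPKM + 1), and a gene is called when its adjusted p (Benjamini-Hochberg over all tested genes, two-sided) is under 0.05. Of the 10 genes, 7 passed the filter and 4 of these were called, 2 lower and 2 higher. Over the 12165 genes tested, 25.8% were called, 14.2% higher and 11.6% lower, so that calls are frequent in this comparison. Log2 fold changes are MC903 plus phytic acid minus MC903 throughout, and their intervals cover 95%. In bulk skin, fewer cells of a type and less RNA per cell cannot be told apart.

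**Figure D1:**
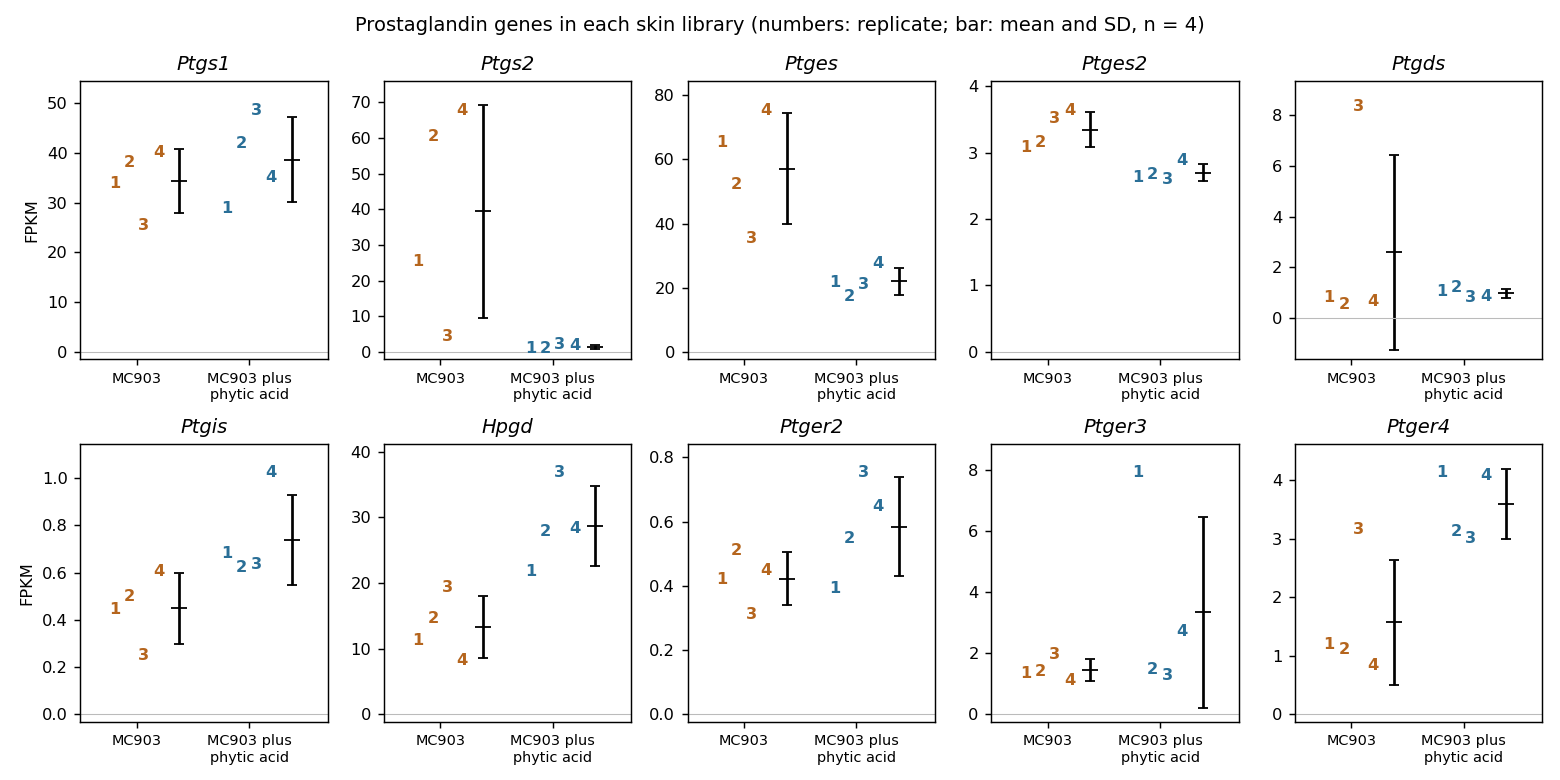
FPKM of the 10 prostaglandin genes in each library, 1 panel per gene with its own axis; numerals are replicates, and bars at the right of each group give the mean and SD (n = 4). Ptgs2 lies at 0.975 to 2.01 in the 4 phytic acid libraries and at 4.27 to 67.8 in the MC903 libraries, whose spread is wide; Ptges and Hpgd separate in opposite directions.

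Ptgs2 spans chr1:150100031-150108227 on the plus strand (GENCODE coordinates, build mm10, as for the other genes). Replicates 1 to 4 of MC903 skin held 25.3, 60.4, 4.27 and 67.8 FPKM, and those with phytic acid 0.975, 0.986, 2.01 and 1.87 FPKM. All 4 MC903 libraries were above all 4 with phytic acid, although MC903 replicate 3 lay far nearer to them than the rest. These levels rest on 736 to 11619 reads against 173 to 395, so counting noise is small beside the spread of the MC903 group. Its log2 fold change was -3.52 ± 0.69 (SE; interval -5.08 to -1.96; limma adjusted p = 0.00664). Leaving out 1 library gave -4.32 to -3.08, and the call held each time; the strongest value, -4.32, was without MC903 replicate 3. Adding 1 to the FPKM makes the fold change smaller where a group is low: it was -4.13 with 0.1 added, -4.22 with 0.01 added and -4.21 by voom on the recovered reads. The wounded keratinocyte markers, among them Krt6a, Krt16 and S100a8, were lower in the same libraries: 5 of 7 were called lower, against 11.6% of all tested genes. Their sum ran from 3584 to 8106 FPKM in MC903 skin and from 772 to 1372 with phytic acid. MC903 replicate 3 had the lowest such sum of its group. The sums of basal and suprabasal keratinocyte markers given above did not overlap either, and were lower with phytic acid. That fall follows Krt14, whose mean was 5275 FPKM in MC903 skin and 1357 with phytic acid. Krt10 went the other way, from 794 to 2508. Among the 8 markers, Krt14 was called lower and Krt15, Krt10 and Dsg1a were called higher, so the list moved in both directions. The part of both lists in the Ptgs2 result was not tested.

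Ptgs1, the constitutive cyclooxygenase gene (chr2:36230426-36252272, plus strand), stood at 33.9, 38.04, 25.4 and 40.0 FPKM in MC903 skin and at 28.8, 42.0, 48.7 and 35.1 with phytic acid. The groups overlapped. The log2 fold change, 0.16 ± 0.18 (SE; interval -0.25 to 0.57), was not called (limma adjusted p = 0.559). In MC903 replicates 2 and 4, Ptgs2 was more abundant per length than Ptgs1, whereas with phytic acid Ptgs1 was the main cyclooxygenase RNA in every library. The Ptgs2 share of their summed FPKM was 42.8%, 61.3%, 14.4% and 62.9% in MC903 replicates 1 to 4, and 3.27%, 2.29%, 3.96% and 5.07% with phytic acid. The shares did not overlap, and a share within a library does not depend on how libraries are scaled. The pair was chosen with results known, so no test is given.

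**Figure D2:**
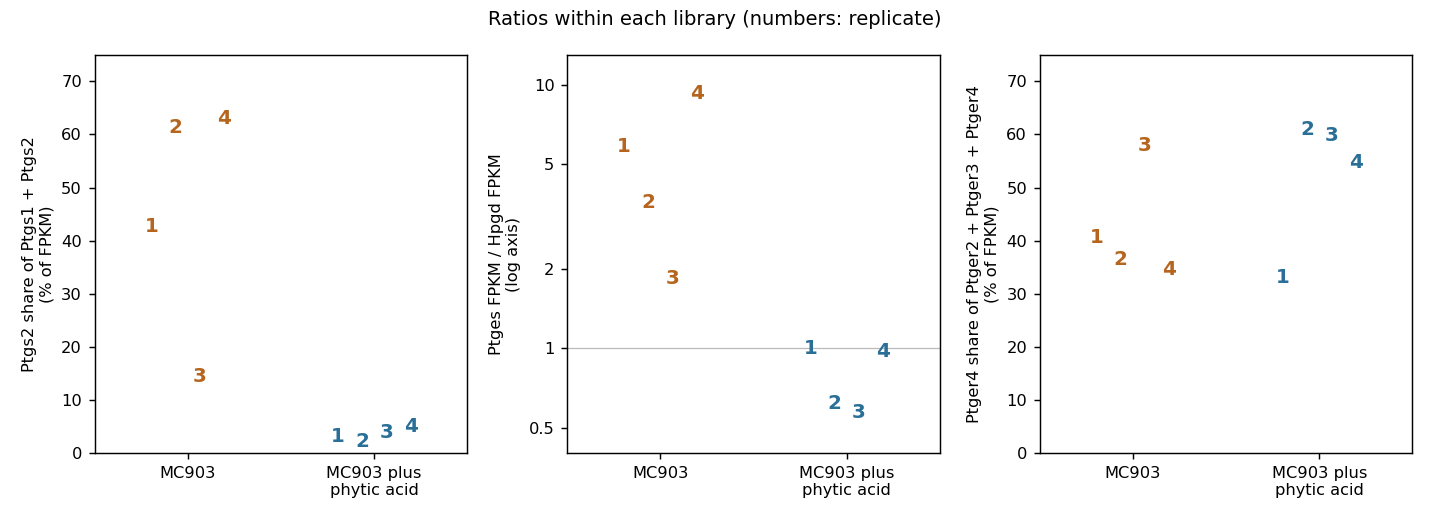
Ratios of FPKM within each library (numerals are replicates): the Ptgs2 share of both cyclooxygenase genes in percent, Ptges over Hpgd on a log axis, and the Ptger4 share of the 3 receptor genes in percent. The first 2 ratios separate the groups (14.4% to 62.9% against 2.29% to 5.07%, and 1.84 to 9.25 against 0.573 to 0.996), and the third overlaps.

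Of the synthases, Ptges fell. It encodes the inducible microsomal synthase of prostaglandin E2, which is known to act together with cyclooxygenase 2, and spans chr2:30889471-30929863 on the minus strand. It stood at 65.3, 52.1, 35.5 and 75.4 FPKM in MC903 skin and at 21.7, 17.3, 21.1 and 27.6 with phytic acid. MC903 replicate 3 was again the lowest of its group, and still above every phytic acid library. The log2 fold change was -1.31 ± 0.22 (SE; limma adjusted p = 0.00355), and leaving out 1 library gave -1.51 to -1.16 with every call kept. The wounded keratinocyte sum and Krt14 were lower in the same libraries, and Krt15, Krt10 and Dsg1a were higher. The part of these markers in the Ptges result was not tested. Unlike Ptgs2, Ptges stayed abundant with phytic acid, at 21.9 ± 4.29 FPKM (SD, n = 4) against 57.1 ± 17.3.

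Ptges2 encodes a second, membrane-associated synthase of prostaglandin E2 that is made steadily in many tissues (chr2:32395896-32405772, plus strand). It stood at 3.08, 3.16, 3.51 and 3.64 FPKM in MC903 skin and at 2.62, 2.68, 2.60 and 2.88 with phytic acid. The groups did not overlap, which also holds for 27.3% of all tested genes. The log2 fold change was small, -0.23 ± 0.09 (SE; limma adjusted p = 0.0854), and did not pass. It passed with median-of-ratios scaling (-0.29, limma adjusted p = 0.0244) and quantile normalization (-0.32, limma adjusted p = 0.0207), under which the median log2 fold change over all tested genes was lower by 0.07 and 0.05.

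The synthases of other prostanoids were low. Ptgds, the lipocalin-type prostaglandin D2 synthase gene (chr2:25466709-25470046, minus strand), stood at 0.823, 0.549, 8.35 and 0.649 FPKM in MC903 skin and at 1.03, 1.19, 0.818 and 0.848 with phytic acid. MC903 replicate 3 was above all other libraries, which lay close together. It is the library with high hair follicle and melanocyte markers, and the part of those cells in its Ptgds level was not tested. Over all 8 libraries the difference in mean log2(FPKM + 1) was -0.39 (exact permutation p = 0.971, two-sided), and without that library it turned to 0.23 (exact permutation p = 0.0857). Ptgis, the prostacyclin synthase gene (chr2:167191805-167240604, minus strand), was lower still, at 0.443, 0.498, 0.248 and 0.604 FPKM and at 0.679, 0.620, 0.634 and 1.02. The groups did not overlap, with a difference of 0.26 and an exact permutation p of 0.0286, two-sided, which is the smallest that 4 against 4 libraries can give. These levels rest on 24 to 58 reads against 61 to 107, and limma over all genes did not call Ptgis without a filter (adjusted p = 0.109) or by voom on the recovered reads (adjusted p = 0.133). The exact p was 0.0571 without any 1 of the phytic acid libraries and 0.0857 without MC903 replicate 3. Ptgds and Ptgis were below the filter and were not in the main test.

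Hpgd rose. It encodes 15-hydroxyprostaglandin dehydrogenase, which takes the first step in inactivating prostaglandin E2, and spans chr8:56294585-56321043 on the plus strand. It stood at 11.2, 14.6, 19.3 and 8.15 FPKM in MC903 skin and at 21.8, 27.9, 36.8 and 28.3 with phytic acid. The groups did not overlap, MC903 replicate 3 being the highest of its group and phytic acid replicate 1 the lowest of its own. The log2 fold change was 1.09 ± 0.24 (SE; limma adjusted p = 0.0102), and leaving out 1 library gave 0.90 to 1.28 with every call kept. Ptges exceeded Hpgd in every MC903 library, by 5.81, 3.58, 1.84 and 9.25 times, and was under Hpgd with phytic acid, at 0.996, 0.619, 0.573 and 0.977 times. Langerhans and dendritic cell markers were higher in the same libraries (6 of 6 tested called higher, with a sum of 115 to 285 FPKM in MC903 skin and 516 to 1076 with phytic acid). Of the macrophage markers, 3 of 8 were called higher (Lyz2, Adgre1 and Csf1r) and 5 were not called, and Cd68 and Mrc1 had negative log2 fold changes. Over all tested genes 14.2% were called higher. The macrophage sum was 665 to 1108 FPKM in MC903 skin and 1133 to 1602 with phytic acid, but without Lyz2, a lysozyme gene, it was 323 to 598 and 445 to 694, and the groups overlapped. The part of these markers in the Hpgd result was not tested.

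The 3 receptor genes encode receptors of prostaglandin E2. Ptger4 encodes the EP4 receptor, which raises cyclic AMP and is found on keratinocytes, T cells and dendritic cells (chr15:5206661-5244187, minus strand). It stood at 1.20, 1.11, 3.15 and 0.833 FPKM in MC903 skin and at 4.12, 3.13, 3.01 and 4.08 with phytic acid. MC903 replicate 3 lay within the phytic acid range, and the other 3 MC903 libraries lay below it. The log2 fold change was 0.90 ± 0.24 (SE; limma adjusted p = 0.0209), and 1.16 without MC903 replicate 3 (limma adjusted p = 0.000358). The adjusted p by limma was 0.0600, 0.0598 or 0.0572 when MC903 replicate 1, 2 or 4 was left out, and 0.0561 or 0.0556 when phytic acid replicate 1 or 4 was, so the call hinges on single libraries. The size also depends on the pseudocount, at 1.37 with 0.01 and 1.36 by voom. Ptger4 overlaps Ttc33 on the other strand, whose mean FPKM was 11.5 and 17.6, and since the strand setting of the counting is not given, reads of the pair may be mixed. Langerhans and dendritic cell markers were higher in the same libraries, and their part in the Ptger4 result was not tested.

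Ptger3 encodes the EP3 receptor, which lowers cyclic AMP (chr3:157566892-157645888, plus strand). It stood at 1.33, 1.42, 1.97 and 1.13 FPKM in MC903 skin and at 7.93, 1.46, 1.27 and 2.73 with phytic acid. Phytic acid replicate 1 was far above the others, and replicates 2 and 3 lay within the MC903 range. The log2 fold change, 0.59 ± 0.38 (SE), was not called (limma adjusted p = 0.276), and it was 0.17 without phytic acid replicate 1. Ptger2, the gene of the EP2 receptor (chr14:44988195-45003820, plus strand), stood at 0.419, 0.511, 0.312 and 0.448 FPKM and at 0.392, 0.548, 0.752 and 0.647. Its groups overlapped, with a difference of 0.15 (exact permutation p = 0.143, two-sided; 0.0286 without phytic acid replicate 1), and it was below the filter. The Ptger4 share of the 3 receptors' FPKM was 34.6% to 58.0% in MC903 skin and 33.1% to 60.9% with phytic acid, with no separation of the groups.

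The order of levels per length therefore differed between the groups. In MC903 skin the order of mean FPKM was Ptges (57.1), Ptgs2 (39.5), Ptgs1 (34.3), Hpgd (13.3), Ptges2 (3.35), Ptgds (2.59), Ptger4 (1.57), Ptger3 (1.46), Ptgis (0.448) and Ptger2 (0.423). Ptges, Ptgs2 and Ptgs1 overlapped with their neighbours in that order, while Ptgs1 was above Hpgd, and Hpgd above Ptges2, in all 4 libraries without overlap. From Ptges2 down to Ptger3 each neighbouring pair overlapped, Ptger3 was above Ptgis without overlap, and Ptgis and Ptger2 overlapped. Ptgds was above Ptger4, and Ptger4 above Ptger3, in MC903 replicate 3 only, so both ranks rest on that library. With phytic acid the order was Ptgs1 (38.7), Hpgd (28.7), Ptges (21.9), Ptger4 (3.59), Ptger3 (3.35), Ptges2 (2.70), Ptgs2 (1.46), Ptgds (0.970), Ptgis (0.739) and Ptger2 (0.585). There, Ptges was above Ptger4 and Ptges2 above Ptgs2 without overlap, and every other neighbouring pair overlapped in range. Ptger3 was above Ptges2 in phytic acid replicate 1 only. Of the 10 genes, 5 lie on chromosome 2 (Ptgs1, Ptges, Ptges2, Ptgds and Ptgis).

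The 10 genes differed in how evenly they were expressed within a group. In MC903 skin the highest library exceeded the lowest 15.9-fold for Ptgs2 and 15.2-fold for Ptgds, but 1.18-fold for Ptges2 and 1.57-fold for Ptgs1. Without MC903 replicate 3 these ranges were 2.68-fold for Ptgs2 and 1.5-fold for Ptgds. With phytic acid the widest range was that of Ptger3, 6.25-fold, and that of Ptgs2 was 2.06-fold. Deviations from the group means over the 8 libraries were correlated at r = 0.76 between Ptgs2 and Ptges and at r = -0.90 between Ptgs2 and Ptger4. These are descriptions, and the points share MC903 replicate 3, which was low for Ptgs2 and Ptges and high for Ptger4. Over the 7 libraries without it, r was 0.21 and -0.40, so both values rest largely on that library.

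By the same measure, the 5 of 12165 tested genes most like Ptgs2 were Csnk1a1 (r = 0.98, casein kinase 1 alpha), Csta2 (r = 0.97, a stefin family gene), H2-Q6 (r = 0.97, a class I histocompatibility gene), Il1a (r = 0.97, interleukin 1 alpha) and Tspan3 (r = 0.96, a tetraspanin). All 5 were lowest within MC903 skin in replicate 3. Without it, over 7 libraries, r was 0.87 for Csnk1a1, 0.86 for Csta2, 0.92 for H2-Q6, 0.84 for Il1a and 0.75 for Tspan3, and they then ranked 7 to 161 in likeness among the tested genes. Likeness within groups did not fix the direction between groups. Csta2 stood at 9.10 ± 5.62 FPKM (SD, n = 4) in MC903 skin and 0.282 ± 0.286 with phytic acid, Csnk1a1 at 93.5 ± 3.88 and 61.9 ± 0.644, and Tspan3 at 43.5 ± 13.7 and 20.4 ± 2.57. H2-Q6 was higher with phytic acid, at 4.42 ± 0.312 against 2.16 ± 0.440 FPKM. Csta2 and H2-Q6 belong to families of close copies, so their values are uncertain.

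**Figure D3:**
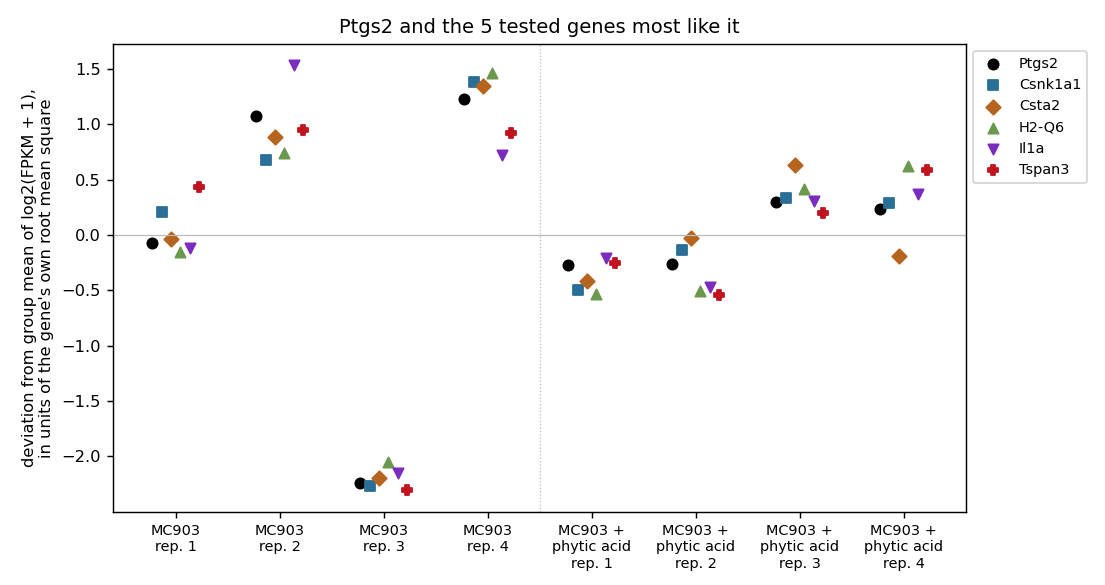
Deviation of log2(FPKM + 1) from the group mean, in units of each gene's own root mean square, for Ptgs2 and the 5 tested genes most like it, in the 8 libraries. All 6 genes are lowest in MC903 replicate 3, and the phytic acid libraries spread less.

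The wider pathway was read from 4 lists of 55 genes found in the table, of which 47 were tested. Of these, Tbxas1 and Ptgdr passed the filter only through the phytic acid group and so had to differ. Without the pair, 12 of 45 were called, of which 4 rose and 8 fell, and this share (26.7%) is near the 25.8% of all tested genes. With the pair, 14 of 47 were called, and 9 when phytic acid replicate 2 was left out. The median log2 fold change was -0.12 over the 45, against 0.05 for all genes tested.

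The list of arachidonate release holds phospholipases and Anxa1, which encodes annexin A1, an inhibitor of phospholipase A2. Of 11 tested, 4 fell, 0 rose and 7 were not called, with a median log2 fold change of -0.26; over all tested genes 11.6% were called lower. Anxa1 stood at 381 ± 33.8 FPKM (SD, n = 4) in MC903 skin and 414 ± 73.8 with phytic acid, and was not called. Pla2g4e fell from 21.1 ± 5.54 to 8.33 ± 3.32 FPKM (SD, n = 4; limma adjusted p = 0.00812), and Pla2g4f from 54.6 ± 3.57 to 23.6 ± 6.17 (limma adjusted p = 0.00184). Both belong to the cytosolic phospholipase A2 family. The secreted phospholipase gene Pla2g2d fell from 5.44 ± 0.739 to 3.06 ± 0.732, and Pla2g12a from 19.2 ± 2.01 to 13.2 ± 1.82. Pla2g4a, whose product is the classical supplier of arachidonic acid to cyclooxygenases, stood at 8.88 ± 2.57 and 7.52 ± 0.817 and did not pass (limma adjusted p = 0.489). Pla2g2f, the phospholipase gene of the list with the highest FPKM, stood at 286 ± 61.0 and 312 ± 13.6 (limma adjusted p = 0.527). Pla2g5 was higher without overlap, at 2.74 ± 1.03 and 4.38 ± 0.871, and did not pass (limma adjusted p = 0.0845). The FPKM sums of the list overlapped, at 742 to 919 and 727 to 890. The 4 calls held without any 1 library.

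Of 10 other genes of prostanoid synthesis and breakdown, Tbxas1 left aside, 2 rose, 2 fell and 6 were not called, with a median log2 fold change of 0.21. This was 40.0% called in a short list, against 25.8% of all tested genes. Ptgr1, a reductase that acts on the product of Hpgd and on leukotriene B4, rose from 30.02 ± 3.06 to 60.5 ± 10.3 FPKM (SD, n = 4; limma adjusted p = 0.00132). Cbr2, a carbonyl reductase gene, rose from 32.5 ± 2.29 to 53.5 ± 16.6 (limma adjusted p = 0.0239), a call lost without MC903 replicate 1 or 2 (adjusted p up to 0.0657). Tbxas1, the thromboxane synthase gene, went from 0.778 ± 0.0972 to 1.648 ± 0.404. Without any 1 of the phytic acid libraries it was under the filter. Cbr3 fell from 24.9 ± 3.18 to 17.0 ± 2.22, and Ptges3, which encodes the cochaperone p23 and is also known as the cytosolic prostaglandin E synthase, from 63.6 ± 2.10 to 46.5 ± 6.62.

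Of 5 tested genes among other receptors and transporters, Ptgdr left aside, 1 rose, 1 fell and 3 were not called, with a median log2 fold change of -0.26. This was 40.0% called in a short list, against 25.8% of all tested genes. Ptgfr, the prostaglandin F2 alpha receptor gene, rose from 2.48 ± 0.743 to 4.18 ± 0.490 FPKM (SD, n = 4; limma adjusted p = 0.0219). Its call was lost when replicate 1 or 2 of either group was left out (adjusted p up to 0.0617). Ptgdr, the prostaglandin D2 receptor gene, went from 0.752 ± 0.121 to 1.35 ± 0.183. Without MC903 replicate 4 the limma adjusted p was 0.0522, and without any 1 of the phytic acid libraries it was under the filter. Ptgfrn, a regulator of that F2 alpha receptor, fell from 13.7 ± 2.43 to 9.16 ± 2.0 (limma adjusted p = 0.0375). Its call held only without MC903 replicate 3 or phytic acid replicate 1, and its adjusted p reached 0.0973 among the other leave-outs. Slco2a1, the prostaglandin uptake transporter gene, stood at 3.68 ± 0.906 and 2.5 ± 0.373 and did not pass (limma adjusted p = 0.0674).

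Of 19 tested genes in a list of inducers and RNA regulators of Ptgs2, 1 rose and 1 fell, with a median of -0.12. This was 10.5% called, against 25.8% of all tested genes. The list mixes genes of several roles, so its median gives no direction of effect on Ptgs2. The cytokine gene Il1a fell from 25.1 ± 6.23 to 15.5 ± 1.08 FPKM (SD, n = 4; limma adjusted p = 0.0218), a call lost when replicate 1 or 2 of either group or MC903 replicate 4 was left out (adjusted p up to 0.0618). Atf3, a stress-induced transcription factor gene, rose from 4.0 ± 1.41 to 22.3 ± 16.5 (limma adjusted p = 0.0140), with values from 6.56 to 45.0 among the phytic acid libraries. Il1b, at 7.55 ± 9.71 and 4.67 ± 3.82, and the NF-kB subunit genes Nfkb1 (8.15 ± 1.03 and 8.70 ± 1.03) and Rela (13.4 ± 1.44 and 12.4 ± 1.52) did not pass (limma adjusted p = 0.774, 0.630 and 0.494). Hbegf (6.09 ± 2.19 and 2.92 ± 1.28) and Cebpb (4.96 ± 0.252 and 3.78 ± 0.567) were lower and came near the cut (limma adjusted p = 0.0512 and 0.0520). Of the 19, 5 had a positive log2 fold change. Without MC903 replicate 3, 1 rose and 3 fell.

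**Figure D4:**
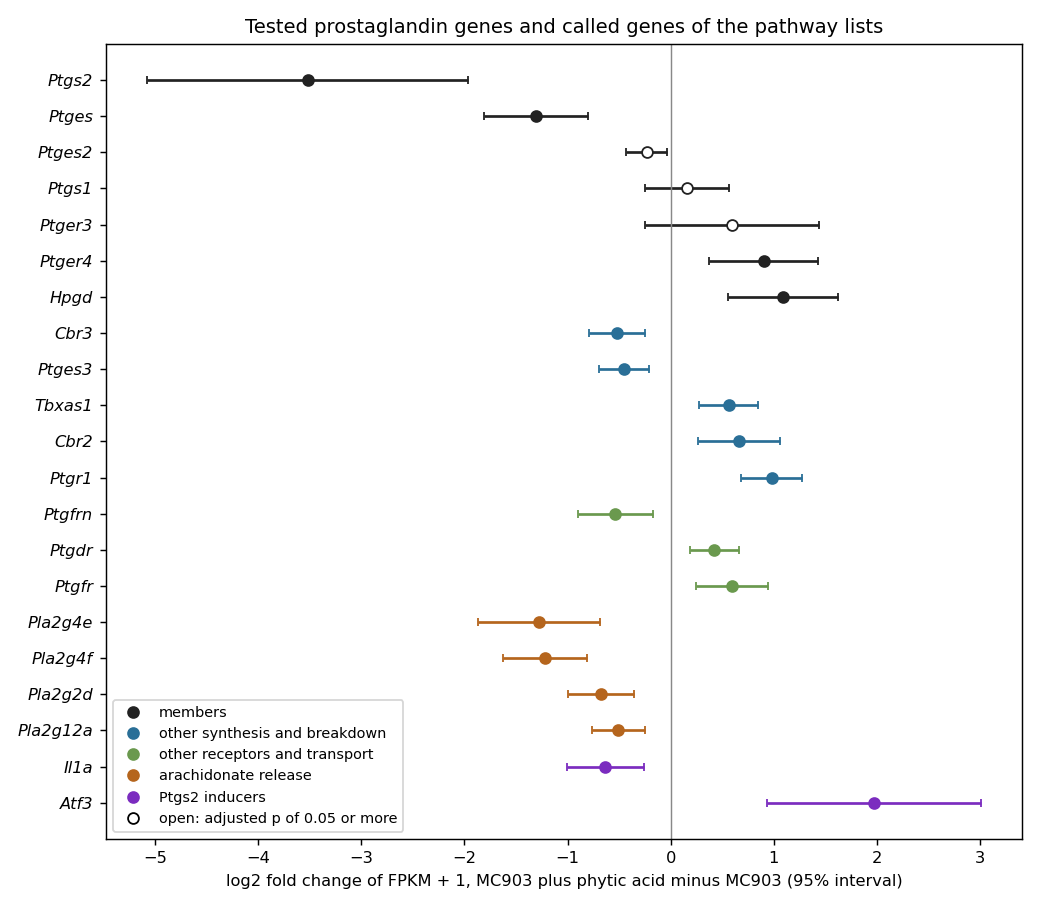
Log2 fold change of FPKM + 1 (MC903 plus phytic acid minus MC903) with its 95% interval for the 7 tested prostaglandin genes and the 14 called genes of the pathway lists, Tbxas1 and Ptgdr included; filled points have a limma adjusted p under 0.05. Ptgs2 lies farthest from 0 at -3.52, and all 4 called arachidonate release genes lie below 0.

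Markers of some other cell types moved with the groups as well. Over all tested genes 14.2% were called higher and 11.6% lower, and the counts of these short lists are to be read against that. Skeletal muscle markers summed to 3258 to 3820 FPKM in MC903 skin and to 7221 to 8404 with phytic acid (7 of 8 called higher). Fibroblast markers summed to 435 to 518 and 583 to 1130 (2 of 7 called higher). All 7 had positive log2 fold changes, but only Dcn and Dpt were called. Col1a1 and Col1a2 in phytic acid replicate 3, at 19.1 and 28.4 FPKM, lay below every MC903 library. Adipocyte markers summed to 190 to 491 and 545 to 985 (2 of 6 tested called higher). Schwann cell markers summed to 81.8 to 110 and 130 to 173 (4 of 6 called higher). Endothelial markers (48.9 to 64.4 and 57.1 to 62.9, 1 of 7 called higher) and mast cell markers (156 to 259 and 135 to 247, 1 of 7 called lower) overlapped. For both, 1 of 7 (14.3%) is near the share over all tested genes. Neutrophil markers summed to 122 to 741 and 14.5 to 161, with 2 of 5 tested called lower, namely Cxcr2, a chemokine receptor gene, and S100a8, which the wounded keratinocyte list also holds. The neutrophil gene Ly6g was at 0 in 6 of 8 libraries. The part of these cells in the results above was not tested.

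**Figure D5:**
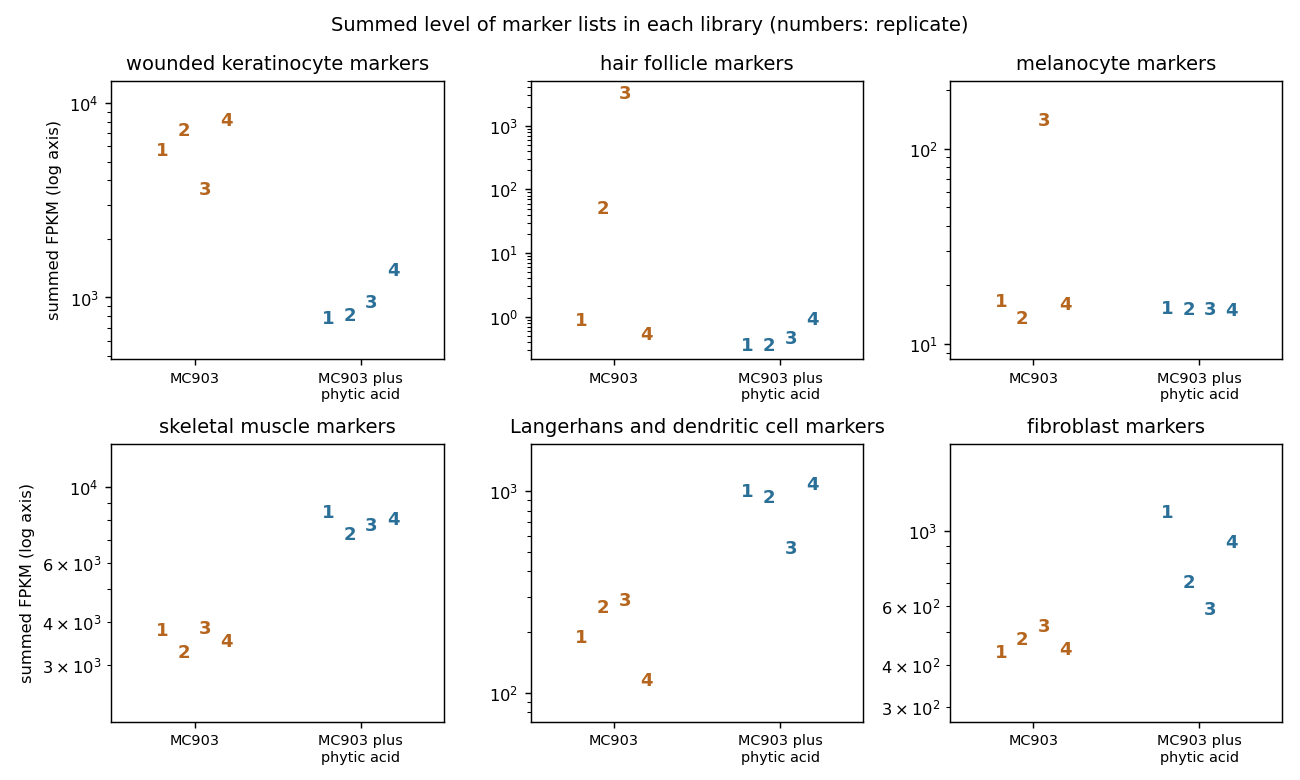
Summed FPKM (log axis) of 6 marker lists in each library; numerals are replicates. MC903 replicate 3 is apart in hair follicle (3150) and melanocyte (139) markers and is the lowest of its group in wounded keratinocyte markers (3584). The sums of muscle, Langerhans and dendritic cell, and fibroblast markers are higher in all phytic acid libraries, although single fibroblast markers overlap.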

How the data were processed

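Total skin RNA was extracted with TRIzol and made into libraries by a SMARTER mRNA kit, per the labels' protocols. HISAT2, TopHat2, cutadapt and DESeq, and the build mm10, are named without roles in the submitters' processing notes. The sources used here give no versions, annotation or strand setting. The authors deposited 1 FPKM value per gene and library. FPKM scales to the library total, so large changes in a few genes shift the rest.

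Of 21959 rows, 51 without a name (up to 0.0238% of a column) were left out, and 21 repeated names kept the row of highest mean. Multiplied by GENCODE exon length, the deposited FPKM of 97.4% of 17980 genes came out within 0.05 of whole reads in every library, all 10 genes here included, which gave the depths. Tests used limma 3.58.1 in R 4.3.3 on log2(FPKM + 1), with a mean-variance trend and group as the single factor. Genes below the filter got an exact permutation test. Figures used matplotlib 3.10.9. On simulated data of 12165 genes, 200 of them changed, 46.8% of genes changed 1.5-fold were called. The share was 82.6% for 2-fold and 98.0% for 4-fold changes, and 5.67% of calls were false. The simulated noise was independent between genes, with no library standing apart and fewer changed genes than were called here, so these rates may not carry over.

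All 10 genes are named, with the called genes of 4 pathway lists, the others counted or named as examples, and the 5 genes most like Ptgs2. Members, lists and tests were chosen with earlier results of these data known. Alternatives were 2 other pseudocounts (0.1 and 0.01), 2 other filters, 3 other scalings, array weights, eBayes without trend or robust, a replicate block and leaving out each library. Voom on the recovered reads, ranges and correlations without MC903 replicate 3, and counts without genes that passed through 1 group only were added after seeing the data.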

Additional observations from a re-analysis of the deposited data

Results flagged for a closer look

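In groups of 4, the highest or lowest library was compared with its nearest neighbour relative to the whole range (Dixon's test at its 95% critical value). Of 64 groups examined, 5 passed, and chance passes about 1 in 20. Ptgds in MC903 replicate 3 was 8.35 FPKM against 0.549 to 0.823 in the other MC903 libraries. Ptger4 in the same library was 3.15 against 0.833 to 1.20. That library also held the high hair follicle markers. Ptgis in phytic acid replicate 4 was 1.02 against 0.620 to 0.679. Ptgr1 in MC903 replicate 1 was 25.5 against 31.1 to 32.1, and Ptgfrn in MC903 replicate 4 was 17.3 against 12.1 to 12.8.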

How the results depend on the processing

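The calls of Ptgs2, Ptges and Hpgd held under every alternative run. Leaving out 1 library gave 1952 to 3891 calls over all genes, 3 to 4 among the prostaglandin genes, 9 to 16 in the pathway lists, and 0 to 1 of the 3 genes below the filter by exact permutation. Array weights gave 4796 calls over all genes. The replicate block gave 2046, with 3 prostaglandin genes and 11 pathway genes, and an adjusted p by limma of 0.0502 for Ptger4. Same-numbered libraries deviated together in 1 of 4 pairs (r = 0.23, against -0.10 to -0.29), and 1 of the 4 MC903 libraries correlated best with its own number. The sources used here do not say whether the numbers pair libraries, and 4 correlations cannot decide it. Calls over all genes were 1469 higher and 1834 lower with median-of-ratios scaling, against 1722 and 1412. Among the results compared, only Ptgds reversed: its difference ran from -0.63 to 0.23 with 1 library left out, 0.23 being without MC903 replicate 3. With a mean FPKM of at least 5, the 2 called lower and Hpgd remained, and Ptger4 was not tested. The 3 genes below the filter rest on as few as 24 reads in a library, which limits their precision.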
